A study of Mus musculus with 8 samples.

Results

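The 10 genes described here belong to the immediate early response: the zinc-finger factors Egr1, Egr2 and Egr3, the orphan nuclear receptors Nr4a1, Nr4a2 and Nr4a3, the early response genes Ier2 and Ier3, the MAP kinase phosphatase Dusp1 and the RNA-binding protein Zfp36 (tristetraprolin). They were picked by symbol out of 33641 in each library's table, with their levels in the 4 genotypes in view, and with it how far the triple null departed from additivity. Their own values are therefore given as a description, without p-values, and calls of the shared fit are only counted beside the share of all genes called. All 10 were among the 16064 genes that reached at least 1 TPM (a level per transcript length, scaled to a fixed total per library) in at least 2 of the 8 libraries.

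RNA was sequenced from haematopoietic stem cells sorted from the bone marrow of C57BL/6 mice, with 2 libraries for each of 4 genotypes. The groups were wild type, Scribble-/- (Scribble null), Taz-/-;Yap1-/- (Yap1 Taz null) and Scribble-/-;Taz-/-;Yap1-/- (triple null). Scribble is a scaffold protein of cell polarity, and Yap1 and TAZ, which the gene Wwtr1 encodes, are co-activators held back by Hippo kinases. Mice of all 4 groups, wild type included, carried Mx1-Cre and had been given polyI:C at 10 mg/kg in 6 injections, and cells were taken 1 week after Cre induction. Mx1-Cre answers to interferon in many blood and other cells, so deletion was not limited to the stem cells, and the labels give no age or sex. The labels do not state whether both libraries of a group stem from different animals. SEs and p-values thus cover only the spread from library to library, which could be technical. In bulk RNA, fewer cells of a type and less RNA per cell cannot be told apart.

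Immediate early genes are transcribed within minutes of a stimulus from promoters whose factors are already bound, without new protein synthesis. ERK and p38 kinases act on serum response factor and its ETS partners at CArG boxes, and on CREB at cAMP response elements (CRE). The Egr and Nr4a proteins then switch on later genes, while Dusp1 takes phosphate off the kinases and Zfp36 marks AU-rich mRNAs for decay, both of which end the response. In blood stem cells, Egr1 and the Nr4a receptors are known as restraints on cell division, and isolating cells from tissue can itself set off this response.

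The promoters of the 3 Nr4a receptors, Zfp36 and Dusp1 are printed because the first 4 of these 5 genes were among those with the widest departures and Dusp1 was the one closest to additivity, which lets the letters before their start sites be compared. Each window is 300 bases of the RefSeq sequence of build GRCm38.p6, 5′ to 3′ on the gene's strand, with 250 bases before the start site. Nr4a1 lies at chr15:101266596-101266895 (plus strand), Nr4a2 at chr2:57123954-57124253 (minus), Nr4a3 at chr4:48045055-48045354 (plus), Zfp36 at chr7:28379179-28379478 (minus) and Dusp1 at chr17:26508423-26508722 (minus). Capitals mark the CRE core TGACG, the whole CRE TGACGTCA, the CArG box and the EGR motif GCGGGGGCG or GCGTGGGCG, on either strand.
Nr4a1: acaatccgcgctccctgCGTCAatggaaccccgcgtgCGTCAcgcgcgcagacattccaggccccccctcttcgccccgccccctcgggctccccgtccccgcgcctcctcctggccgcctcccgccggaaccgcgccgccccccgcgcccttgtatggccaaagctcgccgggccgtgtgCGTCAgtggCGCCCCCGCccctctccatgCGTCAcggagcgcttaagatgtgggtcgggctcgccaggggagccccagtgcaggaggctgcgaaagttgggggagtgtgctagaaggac
Nr4a2: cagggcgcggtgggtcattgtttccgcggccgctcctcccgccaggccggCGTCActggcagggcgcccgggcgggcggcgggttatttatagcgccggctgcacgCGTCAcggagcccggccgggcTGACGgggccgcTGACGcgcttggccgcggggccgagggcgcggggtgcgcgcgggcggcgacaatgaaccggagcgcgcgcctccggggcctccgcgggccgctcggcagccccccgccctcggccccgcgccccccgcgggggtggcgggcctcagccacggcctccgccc
Nr4a3: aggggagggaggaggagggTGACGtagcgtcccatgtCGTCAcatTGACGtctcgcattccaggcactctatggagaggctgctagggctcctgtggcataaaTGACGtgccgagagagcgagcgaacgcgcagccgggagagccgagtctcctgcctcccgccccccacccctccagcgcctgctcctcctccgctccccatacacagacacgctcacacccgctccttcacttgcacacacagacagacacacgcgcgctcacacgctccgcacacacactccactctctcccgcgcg
Zfp36: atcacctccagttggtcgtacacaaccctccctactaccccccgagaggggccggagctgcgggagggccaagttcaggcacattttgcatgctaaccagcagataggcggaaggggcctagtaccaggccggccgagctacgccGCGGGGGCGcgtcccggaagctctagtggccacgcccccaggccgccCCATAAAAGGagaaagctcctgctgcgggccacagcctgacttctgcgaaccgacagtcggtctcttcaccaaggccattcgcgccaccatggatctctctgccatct
Dusp1: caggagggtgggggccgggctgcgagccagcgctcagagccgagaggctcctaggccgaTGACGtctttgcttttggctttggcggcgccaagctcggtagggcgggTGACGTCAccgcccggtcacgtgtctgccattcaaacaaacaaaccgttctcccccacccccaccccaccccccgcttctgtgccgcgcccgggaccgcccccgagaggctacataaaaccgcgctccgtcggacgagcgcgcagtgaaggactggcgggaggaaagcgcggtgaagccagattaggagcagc

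Windows were found for 7 of the 10 genes: these 5, Egr2 and Ier3. The CRE core stood 4 times in each of the Nr4a windows, at −233, −213, −69 and −40 of Nr4a1, at −200, −144, −123 and −111 of Nr4a2 and at −231, −213, −205 and −147 of Nr4a3, counted from the start site to the motif's first base. Only 76 of the 32851 windows (0.231%) held 4 or more, and 20.8% held at least 1. Zfp36 had no CRE core, but a CArG box at −58 and an EGR motif at −105, motifs that 1.63% and 3.47% of all windows hold. Dusp1 had the whole CRE at −143, which 1.79% of windows hold, and 3 cores at −191, −143 and −140, of which the last 2 lie inside that CRE on opposite strands. Nr4a1 also held an EGR motif at −60. Egr2, whose 5 listed starts overlap in part, had a CArG box at −72 and cores at −111 and −55 of the window chr10:67537619-67537918, and Ier3 held none of these motifs. The TEAD motif GGAATG, bound by the partners of Yap1 and TAZ, was in windows of Egr2, Nr4a1 and Nr4a3 (14.7% of all windows). None of the 7 held the Nr4a motif AAAGGTCA (1.51% of windows) or the AP-1 motif TGANTCA (7.81%). A match of letters is a description and no sign of binding.

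**Figure D1:**
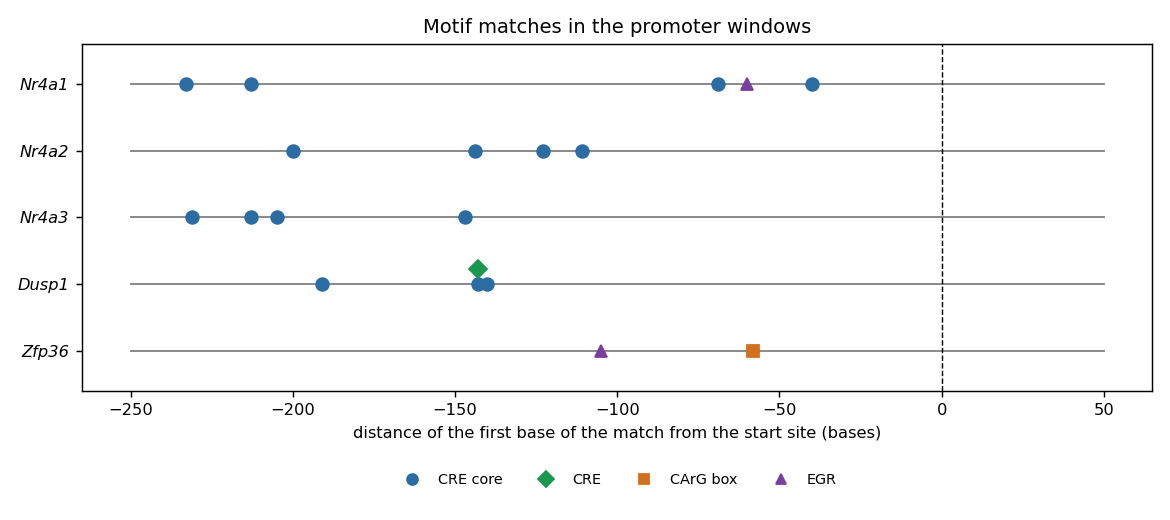
Motifs in the 300-base promoter windows of Nr4a1, Nr4a2, Nr4a3, Dusp1 and Zfp36, by distance in bases from the start site, each mark being a match on either strand. The Nr4a windows carry 4 CRE cores each, Dusp1 the whole CRE, and Zfp36 a CArG box and an EGR motif.

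Across the 8 libraries most of these genes were among the most abundant messages. Mean levels were 1180 TPM for Zfp36 (rank 116 of 16064), 892 for Dusp1 (rank 147), 828 for Egr1 (rank 159), 532 for Nr4a1 (rank 205), 360 for Nr4a2 (rank 304) and 161 for Ier2 (rank 738). Ier3 at 60.4 TPM and Nr4a3 at 55.1 TPM were intermediate, and Egr2 at 3.60 and Egr3 at 3.47 TPM were low. The 10 together summed to 3428 and 3340 TPM in wild type, 4562 and 4908 in Scribble null, 4453 and 4896 in Yap1 Taz null, and 3459 and 3545 in the triple null. Both single-pathway null groups thus stood above wild type in summed level, and the triple null libraries stood just above the wild-type ones and below all 4 others.

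Egr1, the most abundant Egr factor, was lowest in wild type at 504.7 and 515 TPM and highest in Scribble null at 1074 and 1147 TPM. It was 871 and 1009 TPM in Yap1 Taz null and 753 and 747 TPM in the triple null. Each group's libraries were apart from those of its neighbours, in the order wild type, triple null, Yap1 Taz null, Scribble null. The log2 differences from wild type were 1.12 in Scribble null, 0.88 in Yap1 Taz null and 0.56 in triple null libraries (SE 0.11 each), on the log2(TPM + 1) scale used throughout. Egr1 was the only gene of the 10 above wild type by more than 0.5 in all 3 null groups.

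Egr2, which drives myeloid and lymphoid programmes, and Egr3, a factor of lymphocyte activation, stood at a few TPM. Egr2 was 5.86 and 4.09 TPM in wild type, 1.30 and 4.31 in Scribble null, 7.56 and 2.68 in Yap1 Taz null and 1.22 and 1.77 in the triple null. Neighbouring groups overlapped throughout, although both triple null values lay below both wild-type ones. Egr3 was 4.67 and 1.26 TPM in wild type, 3.04 and 3.20 in Scribble null, 3.79 and 4.72 in Yap1 Taz null and 3.70 and 3.41 in the triple null. Its wild-type libraries spanned the values of nearly all others, and its differences from wild type of 0.20, 0.55 and 0.35 became −0.46, −0.12 and −0.32 without wild type 2. The departures of Egr2 and Egr3, −0.42 (SE 0.75) and −0.40 (SE 0.62), changed sign, to 0.19 for Egr2 without Yap1 Taz null 1 and 0.18 without Scribble null 2, and to 0.26 for Egr3 without wild type 2.

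**Figure D2:**
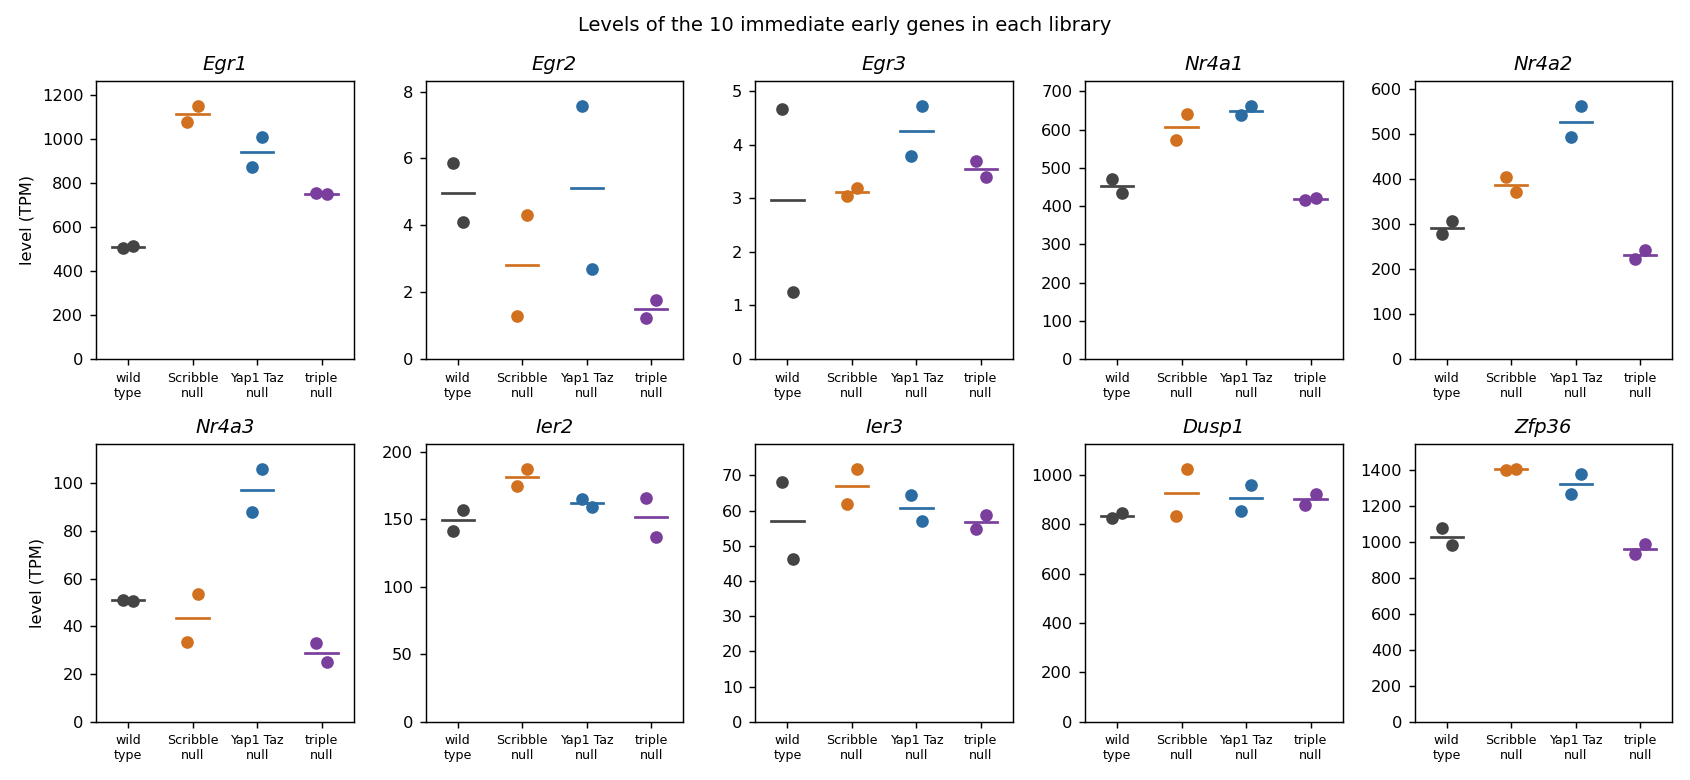
TPM of the 10 genes in each of the 8 libraries, grouped by genotype, with points for libraries and a bar at the mean of each group. Nr4a1, Nr4a2 and Zfp36 stand highest in the Scribble null and Yap1 Taz null libraries and at or below the wild-type level in the triple null, while group means of Dusp1, Ier2 and Ier3 lie within 0.28 of wild type on the log2 scale.

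The Nr4a receptors act as transcription factors without a known ligand, and Nr4a1 (Nur77) and Nr4a3 (Nor1) hold back proliferation in blood stem cells. Nr4a1 was 471 and 433 TPM in wild type, 573 and 641 in Scribble null, 639 and 661 in Yap1 Taz null and 416 and 420 in the triple null. The single-pathway null groups overlapped each other and lay above wild type, and the triple null lay below it. Differences from wild type were 0.42, 0.52 and −0.11 (SE 0.11).

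Nr4a2 (Nurr1) showed a like order, with the triple null lowest and Yap1 Taz null highest. It was 278 and 306 TPM in wild type, 404 and 371 in Scribble null, 493 and 561 in Yap1 Taz null and 221 and 242 in the triple null, and no 2 groups overlapped. Its differences from wild type were 0.41, 0.85 and −0.33 (SE 0.12), and from Yap1 Taz null to the triple null −1.18, a level 0.441 times as high.

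Nr4a3 differed from the other two receptors in Scribble null. It was 51.2 and 50.5 TPM in wild type, 33.6 and 53.4 in Scribble null, 88.1 and 106 in Yap1 Taz null, and 32.8 and 25.1 in the triple null. Scribble null 1 was below and Scribble null 2 above the wild-type libraries, and the difference of −0.26 (SE 0.24) became 0.07 without Scribble null 1. Yap1 Taz null was above wild type by 0.91, and the triple null was 1.72 below Yap1 Taz null, the widest gap among the 10 genes.

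Zfp36, the most abundant of the 10, binds AU-rich elements in mRNAs of cytokines and of immediate early genes, its own included. It was 1080 and 983 TPM in wild type, 1404 and 1407 in Scribble null, 1266 and 1378 in Yap1 Taz null and 933 and 987 in the triple null. Triple null and wild type overlapped, and both other groups lay apart and above them. Differences from wild type were 0.45, 0.36 and −0.10 (SE 0.10).

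Dusp1, which switches off p38, JNK and ERK kinases, was 824 and 844 TPM in wild type, 832 and 1023 in Scribble null, 854 and 957 in Yap1 Taz null and 878 and 923 in the triple null. The 3 null groups overlapped one another. The differences from wild type of 0.15, 0.12 and 0.11 (SE 0.13) did not exceed the median of all genes by more than 0.01, and turned to −0.01, −0.04 and −0.02 under median ratio scaling. Without Scribble null 2, the first was −0.0038. Its group means stood in the same order as those of Egr1, but with overlap between all null groups.

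Ier2, a nuclear regulator, was 142 and 157 TPM in wild type, 175 and 187 in Scribble null, 165 and 159 in Yap1 Taz null, and 166 and 137 in the triple null. Scribble null stood apart from all other groups, 0.28 (SE 0.14) above wild type, and Yap1 Taz null lay just above wild type without overlap, by 0.12. Ier3, which modulates ERK signalling and cell survival, was 68.0 and 46.3, 61.9 and 71.8, 64.5 and 57.0, and 54.7 and 58.6 TPM in the same order of groups, and all neighbouring groups overlapped. The sign of its difference between Scribble null and wild type, 0.25 (SE 0.20), was −0.03 without wild type 2. The difference of Ier2 in Yap1 Taz null became −0.04 under median ratio scaling.

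**Figure D3:**
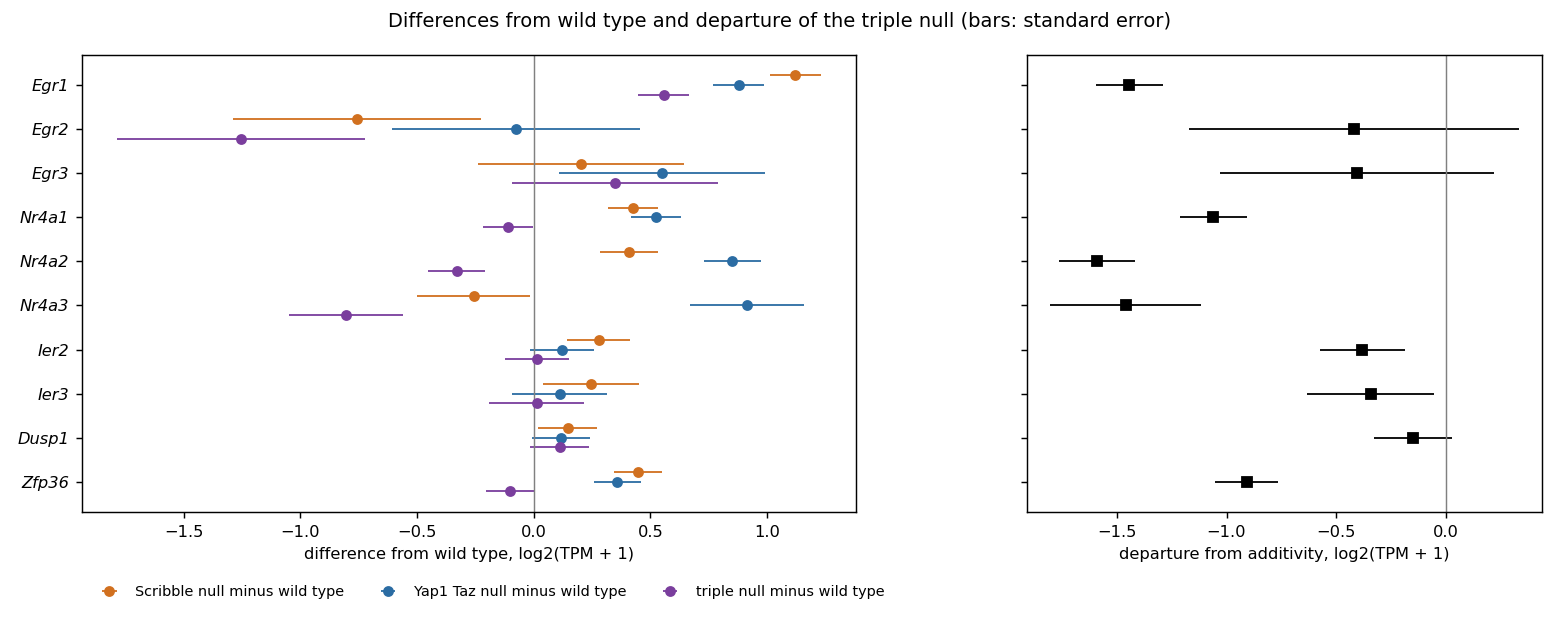
Log2 differences of the 10 genes from wild type in Scribble null, Yap1 Taz null and triple null libraries, and the departure from additivity in the triple null, with bars of 1 SE. Departures of Egr1, Nr4a1, Nr4a2, Nr4a3 and Zfp36 lie between −1.59 and −0.91, and those of Dusp1, Ier2, Ier3, Egr2 and Egr3 between −0.42 and −0.15.

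Loss of Scribble went with higher levels of 4 of the 10 genes where Yap1 and Taz were intact and lower levels where they were absent, in libraries that did not overlap. These 4 were Egr1, Nr4a1, Nr4a2 and Zfp36, and 8.1% of all genes tested showed this pattern. Loss of Yap1 and Taz likewise went with higher levels where Scribble was intact and lower levels where it was absent for these 4, Nr4a3 and Ier2, against 8.72% of all genes. Egr1, Nr4a1, Nr4a2 and Zfp36 showed both patterns, as did 4.92% of genes. These genes were chosen with such values in view, so nothing is read from the shares.

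The departure is the log2 difference between the triple null and an expected level. That level adds the separate log2(TPM + 1) changes of the other null groups to wild type, converted back to TPM. Fold changes are thus multiplied, and changes in TPM are not summed. For Egr1 that level was 2040 TPM against 750.1 TPM in the triple null, a departure of −1.44 (SE 0.15). For Nr4a2 it was 699 against 232 TPM (departure −1.59, SE 0.17), for Nr4a3 80.7 against 28.7 TPM (−1.46, SE 0.34), for Nr4a1 873 against 418 TPM (−1.06, SE 0.15) and for Zfp36 1802 against 959 TPM (−0.91, SE 0.14). Ier2 stood at 151 TPM where adding gave 197 (−0.38, SE 0.19), Ier3 at 56.6 where it gave 72.1 (−0.34, SE 0.29) and Dusp1 at 900.3 where it gave 1000 (−0.15, SE 0.18). All 10 departures were below 0, as were 60.2% of departures over all genes, and the median was −0.66 for the 10 against −0.15 for all. The departures of Egr1, Nr4a1, Nr4a2, Nr4a3 and Zfp36 stayed below 0 under all 17 alternatives run, whereas that of Dusp1 was 0.03 under median ratio scaling.

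**Figure D4:**
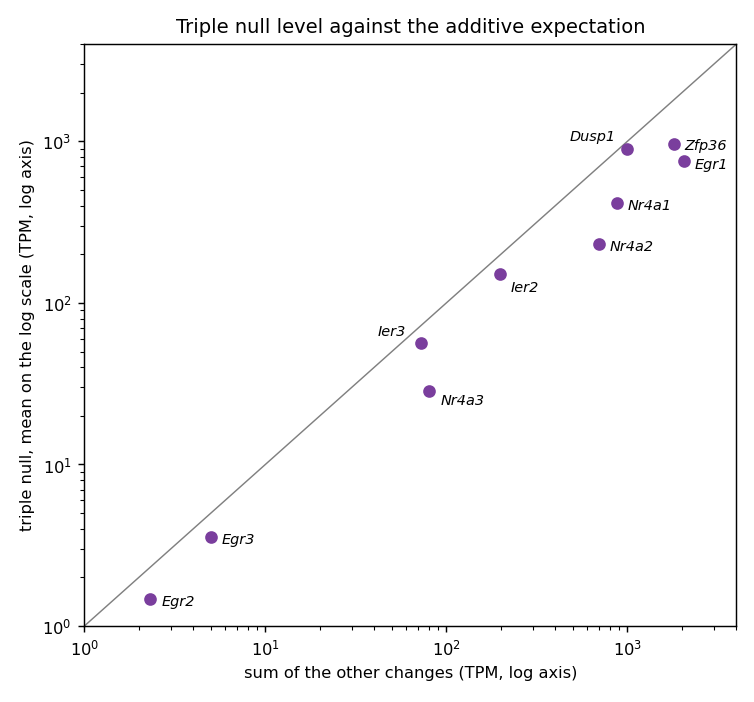
Level expected from adding the changes of the Scribble null and Yap1 Taz null groups to wild type, against the level seen in the triple null, both in TPM on log axes, for the 10 genes. All points lie below the line of equal levels, Nr4a2 and Egr1 by the widest margins among the abundant genes and Dusp1 close to it.

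Calls by limma (adjusted p under 0.05 over all 16064 genes) rest on the contrasts that served to choose the genes, so their counts stand beside the background and nothing is read from them. In Scribble null against wild type Egr1 was called higher, where 1.3% of all genes were called, 0.591% as higher. In Yap1 Taz null against wild type Egr1 and Nr4a2 were called higher (0.99% of all genes called, 0.473% as higher). None of the 10 was called in the triple null against wild type (0.579%) or against Scribble null (0.212%), where 4 genes in each had an unadjusted p under 0.05, all lower but Egr1 against wild type (over all genes 7.5% higher and 3.45% lower against wild type, and 4.59% lower against Scribble null). Nr4a2 was called lower in the triple null than in Yap1 Taz null (0.181% of genes called, 0.112% as lower). For the departure, Egr1, Nr4a1, Nr4a2 and Zfp36 were called, all 4 below 0 (0.635% of genes called, 0.261% below 0). Leaving out 1 library kept 1 to 3 of these 4 calls: Zfp36 lost its call without any 1 of the 8, Nr4a1 without either library of wild type, Yap1 Taz null or triple null, Nr4a2 without wild type 1 or triple null 1, and Egr1 without triple null 2. The call of Egr1 in Scribble null held without each library but was lost when only these 2 groups were fitted and without the mean-variance trend, and that in Yap1 Taz null was lost without wild type 1, wild type 2 or Yap1 Taz null 2. The call of Nr4a2 in Yap1 Taz null was lost without either library of wild type, Yap1 Taz null or triple null, and that against the triple null without either library of those last 2 groups. Without a filter on low values and under median ratio scaling the departure was called, of the 10, for Egr1 and Nr4a2, and without the trend for none. Losses on leaving out a library left differences of 0.76 or more in size.

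Against wild type, 8 of the 10 genes were above 0 in Scribble null, as were 62.5% of all genes, 9 in Yap1 Taz null (63.9%) and 5 in the triple null (63%). Median log2 differences of the 10 were 0.26, 0.44 and −0.05 in these comparisons, against 0.15, 0.14 and 0.12 over all genes. In the triple null, 9 of the 10 were below Scribble null (51.7% of all genes) and 10 below Yap1 Taz null (52.3%), with medians of −0.52 and −0.39 against −0.01 and −0.02. Egr3 was the 1 gene above Scribble null in the triple null, by 0.14 (SE 0.44).

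The 10 genes did not all vary together. Over the 8 libraries, which share 4 genotypes, Pearson correlations of log2(TPM + 1) were 0.949 for Nr4a1 with Zfp36, 0.922 for Nr4a1 with Nr4a2, 0.849 for Nr4a2 with Zfp36, 0.812 for Nr4a2 with Nr4a3 and 0.739 for Egr1 with Nr4a1. Egr1 and Nr4a3 had a correlation of 0.172. Among 9183 genes with a mean of at least 10 TPM, those most like the mean profile of the 10 included Sfxn4 (r = 0.954), Il12rb2 (0.951), Gm3854 (0.95), Gm2531 (0.944), Adgre5 (0.933), Sgip1 and 1110032A03Rik (both 0.925), Pex5 (0.921) and Dbf4 (0.919). Those most like Egr1 were Fgd4 (0.991), Olfr648 (0.987), RP24-570C10.8 (0.982), Ivd (0.977) and the clock gene Per1 (0.976), itself an immediate early gene.

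Of 44 other immediate early genes, 41 were tested. Against wild type, 3 were called higher by limma in Scribble null and none lower (0.591% of all genes called higher). Of the 41, 34 were above 0 and 7 below (62.5% of all genes above 0), with a median of 0.32 against 0.15 for all genes. At a limma unadjusted p under 0.05, 16 were higher and 0 lower (12% and 6.16% of all genes). Fosb, a Fos family partner of Jun, rose from 327 and 315 to 591 and 645 TPM (log2 difference 0.94, SE 0.12, limma adjusted p = 0.0113). Klf6, a zinc-finger factor, rose from 97.5 and 96.3 to 158 and 164 TPM (0.72, SE 0.12, adjusted p = 0.0346), and Per1 rose from 66.5 and 66.2 to 110 and 136 TPM (0.87, SE 0.15, adjusted p = 0.043). The libraries of these 3 genes did not overlap between the groups. Fosb lost its call without wild type 1 or wild type 2 (highest adjusted p = 0.103), and Klf6 and Per1 without any 1 of the 8 libraries (adjusted p from 0.0668 to 0.211 and from 0.075 to 0.251), all 3 staying higher.

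In Yap1 Taz null none of the 41 was called by limma, and 14 were higher and 0 lower at an unadjusted p under 0.05 (10.1% and 4.2% of all genes), with a median of 0.33 against 0.14. Per1 stood at 104 and 117 TPM there and Fosb at 342 and 407 TPM. In the triple null against wild type the median was 0.04 against 0.12 for all genes, and 1 gene, Cyr61, was called (0.579% of all genes called). At a limma unadjusted p under 0.05, 5 were higher and 10 lower there (7.5% and 3.45% of all genes). Cyr61, a matrix protein gene known as a target of Yap1 and TAZ, fell from 30.7 and 35.2 to 9.85 and 6.50 TPM (−1.91, SE 0.24, limma adjusted p = 0.0143), and was 24.96 and 21.3 in Scribble null and 31.9 and 28.1 in Yap1 Taz null. Its call was lost without wild type 1, wild type 2 or triple null 2 (highest adjusted p = 0.119). It was also lower in the triple null than in Yap1 Taz null (−1.78, limma adjusted p = 0.0459), where 0.112% of all genes were called lower. That call was lost without any 1 library.

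For the departure, 36 of the 41 other immediate early genes were below 0, as were 60.2% of all genes, with a median of −0.70 against −0.15. At a limma unadjusted p under 0.05, 25 were below 0 and 0 above (9.5% of all genes below). Of the 41, 2 were called, both below 0, as were 0.261% of all genes. Bhlhe40, a repressor of the circadian clock and of cytokine genes, was 79.0 and 102 TPM in wild type, 172 and 152 in Scribble null, 117 and 109.6 in Yap1 Taz null and 59.5 and 59.4 in the triple null, where it departed by −1.76 (SE 0.22, limma adjusted p = 0.0151). It fell from Scribble null to the triple null by 1.43 (SE 0.16, limma adjusted p = 0.0127), where 16 of all 16064 genes were called lower. The departure was still called without wild type 2 or Scribble null 2 only, of the 8 libraries (highest adjusted p = 0.0934), and the fall from Scribble null was lost without Scribble null 1, triple null 1 or triple null 2 (highest adjusted p = 0.144). Btg2, an inhibitor of cell division, was 119 and 142, 156 and 170, 207 and 190, and 103 and 80.7 TPM in the same order and departed by −1.44 (SE 0.23, adjusted p = 0.0403), a call lost without any 1 library (adjusted p from 0.0696 to 0.17). The AP-1 gene Fos, for comparison, differed by 0.30 in Scribble null and departed by −0.34 (SE 0.20), neither called.

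**Figure D5:**
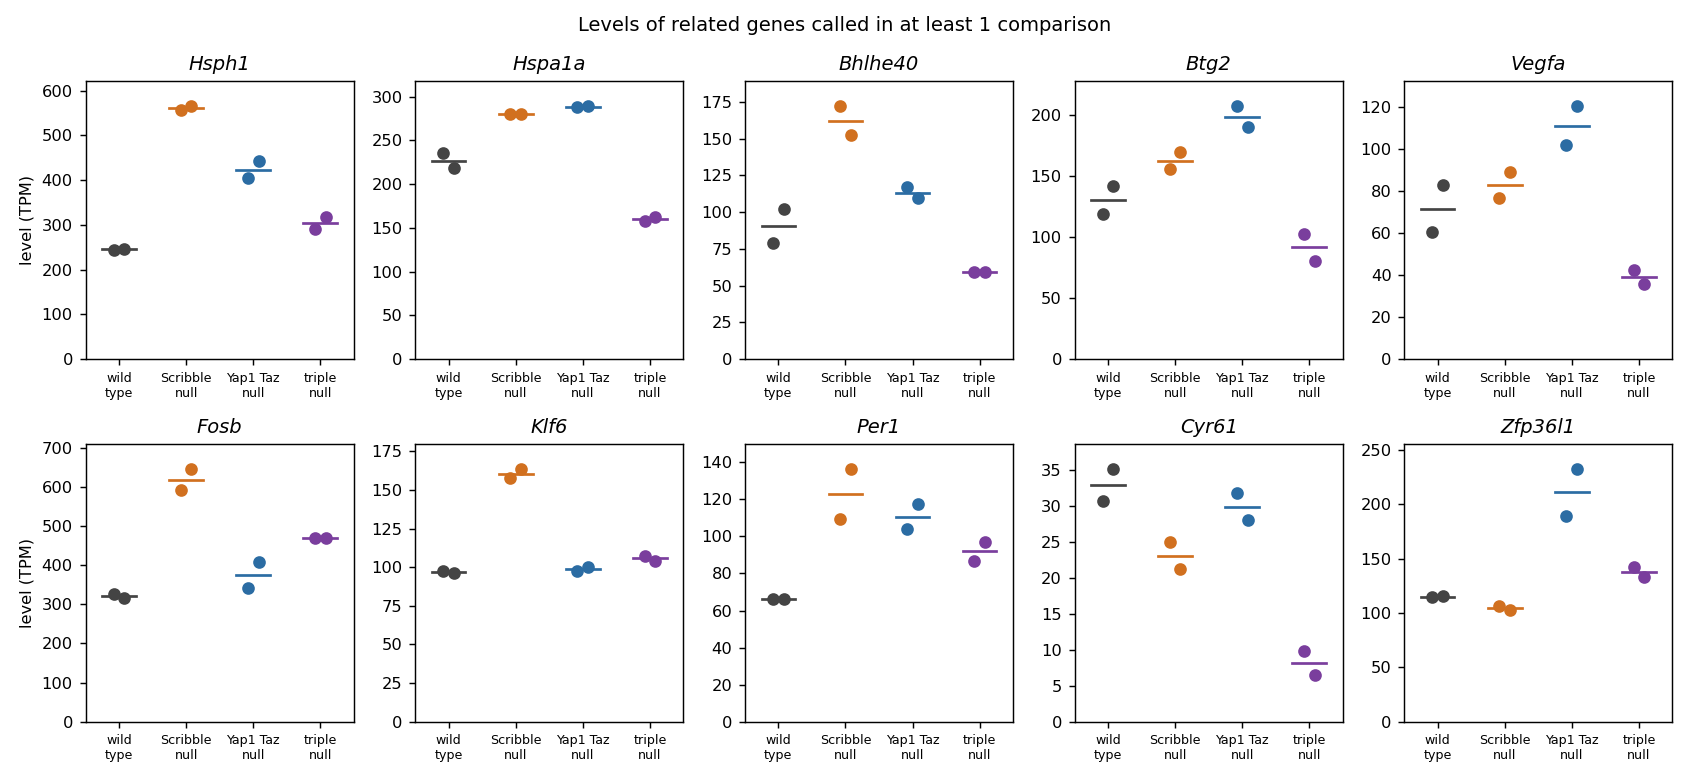
TPM in each of the 8 libraries of 10 related genes called in at least 1 comparison, with points for libraries and a bar at each group's mean. Hsph1 and Bhlhe40 are highest in Scribble null, Btg2 and Zfp36l1 in Yap1 Taz null, and Cyr61 and Vegfa lowest in the triple null.

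The 27 kinases and factors that act upstream of immediate early promoters had no call in any of the 6 comparisons by limma. At an unadjusted p under 0.05, 3 were higher in Scribble null, 3 in Yap1 Taz null and 2 in the triple null against wild type, with 0 lower. Over all genes 12%, 10.1% and 7.5% were higher and 6.16%, 4.2% and 3.45% lower at that p. In the triple null 1 was lower than in each other null group, as were 4.59% and 4.58% of all genes. Medians were 0.20, 0.11 and 0.17 against 0.15, 0.14 and 0.12 for all genes, and −0.14 against −0.15 for the departure, with 4 genes below 0 at that p (9.5% of all genes). The 3 with the highest level were the CREB relative Atf1 at 137 and 169 TPM in wild type, the ETS factor Elk4 at 181 and 198 TPM and the p38 kinase Mapk14 at 184 and 162 TPM. Their differences between Scribble null and wild type were 0.54, −0.10 and 0.06, with adjusted p of 0.295 or more.

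Among 23 feedback regulators, such as other dual-specificity phosphatases, Sprouty proteins and Nab co-repressors of Egr factors, 21 were tested and 1 was called. That call was in Yap1 Taz null, where 0.473% of all genes were called higher. Zfp36l1, a relative of Zfp36, rose in Yap1 Taz null from 114 and 116 to 190 and 233 TPM (0.86, SE 0.14, limma adjusted p = 0.0325), and was 106 and 102 in Scribble null and 142 and 134 in the triple null. Its call was lost without either library of wild type, Yap1 Taz null or triple null (highest adjusted p = 0.225).

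Of 16 transcripts known for AU-rich elements, the kind that Zfp36 binds, 11 were tested, and 2 were called lower in Scribble null. Over all genes, 114 of 16064 were called lower there. Tnf, an inflammatory cytokine, fell in Scribble null from 13.3 and 8.57 to 1.83 and 1.01 TPM (−2.29, SE 0.38, limma adjusted p = 0.0356). Cyclin D1 (Ccnd1) fell from 35.9 and 47.8 to 17.5 and 15.9 TPM (−1.26, SE 0.21, adjusted p = 0.0374). Vegfa, an endothelial growth factor, was 60.5 and 82.8 TPM in wild type, 76.7 and 89.2 in Scribble null, 102 and 120 in Yap1 Taz null and 42.2 and 35.5 in the triple null, and departed by −1.71 (SE 0.28, adjusted p = 0.0457). It fell from Yap1 Taz null to the triple null by 1.49 (limma adjusted p = 0.0459), where 0.112% of all genes were called lower. Each of these 4 calls was lost without any 1 library (adjusted p from 0.0524 to 0.256, 0.0615 to 0.151, 0.061 to 0.201 and 0.0637 to 0.318). The list's median was −0.29 in Scribble null and −0.85 in the triple null, against 0.15 and 0.12 for all genes, and 0.21 against −0.15 for the departure.

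Several of the 10 genes carry AU-rich elements in their own 3′ untranslated regions. The heptamer TATTTAT stood 4 times in Ier3, 3 times in Dusp1, 3 times in Zfp36, 2 times in Nr4a3 and once in Nr4a2, and not in Egr1, Egr2, Egr3, Nr4a1 or Ier2. Of 13275 tested protein-coding genes 29.6% had one, and of those with a region of like length 17% did for Ier3, 19.4% for Dusp1, 19.2% for Zfp36, 31% for Nr4a2 and 52.8% for Nr4a3. The sites with the heptamer in capitals show how closely they lie in Ier3 and Zfp36, with at most 1 in 30 bases of Dusp1, in bases 685 to 714, 2583 to 2612 and 1381 to 1410 of their GENCODE M21 transcripts.
Ier3: tccgtgtctaattaaTATTTATgTATTTAT
Zfp36: gggcccttTATTTATgacgacttTATTTAT
Dusp1: agaggctcatgggagctggtcctTATTTAT

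Genes with wide and narrow departures stood on both sides of this split. Of the 5 holders, Nr4a2 and Nr4a3 departed by −1.59 and −1.46 and Zfp36 by −0.91, and Ier3 and Dusp1 by −0.34 and −0.15. Of those without the heptamer, Egr1 and Nr4a1 departed by −1.44 and −1.06, and Egr2, Egr3 and Ier2 by −0.42, −0.40 and −0.38. The median gene length of the 10 was 6063 bases against 22803 for 13454 tested genes with an annotated coding transcript. By annotated span, 8 of the 10 were below that median, Dusp1 with 56539 and Nr4a3 with 41295 bases being longer, and 7 had fewer exons than the median of 8. Egr1, Egr2, Egr3, Ier3 and Zfp36 had 2 exons, Ier2 had 1, Dusp1 had 4, and the Nr4a receptors had 8 each. On GRCm38, Nr4a1 spans chr15:101254269-101274795, Nr4a2 chr2:57106830-57124003, Nr4a3 chr4:48045153-48086447, Zfp36 chr7:28376784-28380253 and Dusp1 chr17:26505590-26562128. The annotated span of Dusp1 extends upstream of its printed promoter window at chr17:26508423-26508722, and its longest coding transcript has 1990 bases. The 56539 bases are therefore not the length transcribed from that window. The spans of Nr4a1 and Zfp36 likewise extend upstream of their printed windows, so their 20527 and 3470 bases are not such lengths either.

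Heat shock genes, which cell handling and stress can switch on, moved in part with the same groups. Hsph1, a chaperone of the Hsp110 family, rose from 244 and 247 TPM in wild type to 557 and 565 in Scribble null (1.19, SE 0.11, limma adjusted p = 0.00172), a call that held in all 18 alternatives, and was 292 and 317 in the triple null. It rose to 404 and 443 TPM in Yap1 Taz null (0.78, adjusted p = 0.0163), a call lost without wild type 1 or 2, Yap1 Taz null 1 or 2 or triple null 2 (highest adjusted p = 0.148). It departed by −1.66 (SE 0.15, adjusted p = 0.00248), called in 16 of 17 alternatives, the exception being the fit without the mean-variance trend. Hspa1a, an Hsp70, was 235 and 218, 279.7 and 279.9, 288 and 289, and 158 and 163 TPM in the order wild type, Scribble null, Yap1 Taz null, triple null and departed by −1.15 (SE 0.15, adjusted p = 0.0177), a call left only without Scribble null 2 when each library was left out (highest adjusted p = 0.108). Both genes fell from Scribble null to the triple null (limma adjusted p = 0.0212 and 0.0347), and Hspa1a from Yap1 Taz null as well (adjusted p = 0.0389), calls lost without any 1 library. Of all 16064 genes, 16 and 18 were called lower in these 2 comparisons. Of the 11 heat shock genes, 1 was called higher in Scribble null and 1 in Yap1 Taz null, as were 0.591% and 0.473% of all genes. None was called in the triple null against wild type (0.579% of all genes called). There 1 was higher and 2 lower at a limma unadjusted p under 0.05 (7.5% and 3.45% of all genes). In Scribble null 6 were higher and 1 lower at that p (12% and 6.16%). In Yap1 Taz null 4 were higher and 0 lower (10.1% and 4.2%). In the triple null 7 were lower and 1 higher than in Scribble null (4.59% lower). Against Yap1 Taz null, 4 were lower and 0 higher (4.58% lower). For the departure 8 were below 0 and 1 above (9.5% below), with a median of −0.54 against −0.15. Their summed level was 7343 to 7748 TPM in wild type, 7869 to 9375 in Scribble null, 8510 to 8555 in Yap1 Taz null and 7379 to 7920 in the triple null. The part of cell stress or handling in the levels of the immediate early genes was not tested.

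Of 12 stem cell markers all were tested, with sums of 2079 to 2148 TPM in wild type, 2202 to 2467 in Scribble null, 2213 to 2483 in Yap1 Taz null and 2537 to 2664 in the triple null. Sums of 11 monocyte and dendritic markers were 2879 to 3252, 555 to 601, 723 to 796 and 1027 to 1066 TPM in that order. In wild type H2-Aa, H2-Ab1 and Cd74 made up most of the sum. All 3 were called lower in Scribble null, Yap1 Taz null and triple null, as were 114, 83 and 57 of all 16064 genes. Their departures were called above 0, as were those of 60 genes in all. Lyz2 stood at 176 to 292 TPM over all 8 libraries, and at 238 and 205 TPM in Scribble null, above each of those genes there. Cd68 stood at 46.1 and 33.0 TPM in Scribble null and at 17.4 to 23.4 TPM in the other groups. Clec9a, at 2.43 and 3.89 TPM in wild type and 3.40 and 3.58 in the triple null, was 8.61 and 11.7 in Scribble null. It was called higher in Yap1 Taz null at 14.1 and 13.5 TPM (0.473% of all genes). Its departure was called below 0 (0.261% of all genes). Csf1r, Ccr2 and Itgax were under 1 TPM in all 8. Sums of 7 megakaryocyte markers were 1168 to 1307, 423 to 434, 618 to 625 and 476 to 516 TPM. Pf4 was called lower in all 3 null groups, and its departure above 0. Sums of 8 neutrophil markers were 119 to 143, 268 to 428, 163 to 176 and 199 to 217 TPM, with S100a8 listed at 0 in all. Prtn3 led and was called higher in Scribble null (0.591% of all genes), at 425 and 262 TPM against 118 and 141 in wild type. Defining T and NK markers Cd3e, Cd3g, Trac and Ncr1 and B-lineage markers Pax5, Ebf1 and Igll1 were under 1 TPM in all 8. Others of these lists were detected: Nkg7 at 56.2 to 152 TPM, highest in wild type and called lower in Yap1 Taz null, Cd3d at 5.05 to 11.7, Cd79b at 9.80 to 19.6, and Klrb1c at 0.659 and 3.24 TPM in wild type, 30.9 and 14.95 in Scribble null, 5.35 and 2.22 in Yap1 Taz null and 1.31 and 4.20 in the triple null. Summed levels of B, T and NK, erythroid and endothelial lists stayed between 13.5 and 164 TPM. The part of other cells in the immediate early levels was not tested. The 4 Y-linked genes summed to 142 to 143, 171 to 172, 22.5 to 34.0 and 163 to 179 TPM, so the low Yap1 Taz null values, and any effect of the animals' sex, cannot be told apart from that genotype in the departures above. Library correlations with the replicate were 0.953 to 0.965, and Scribble null 2 had a higher one with triple null 2 (0.958) than with its replicate. Scrib stood at 8.19 and 9.29 TPM in wild type, 6.25 and 7.63 in Scribble null and 14.5 and 7.54 in the triple null. Yap1 stood at 2.00 and 2.15 TPM in wild type, 2.13 and 6.63 in Yap1 Taz null and 2.25 and 2.37 in the triple null, and Wwtr1 at 0.730 and 1.19, 1.09 and 1.15, and 1.92 and 0.775 TPM in those groups. In Scribble null, Yap1 stood at 5.83 and 2.45 TPM and Wwtr1 at 5.32 and 3.91 TPM. Scrib in Yap1 Taz null stood at 7.98 and 7.32 TPM, overlapping Scribble null. Levels summed over a whole gene do not check the loss of exons, and these do not bear out the labels, so directions are between libraries as labelled.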

How the data were processed

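RNA of sorted stem cells was amplified with the Ovation RNA-Seq system and made into Nextera XT libraries, per the labels' protocols. The authors deposited 1 table per library with TPM values by gene symbol (per the file headers). Each table sums to 1000000 over 33641 symbols, so the depth behind a value is unknown. A further table deposited by the authors for the whole series, used as an alternative, holds signal on a linear scale whose unit the header does not name. Of its 28987 identifiers 27458 matched a symbol. TopHat, with no version, and build mm10 come from the submitters' processing notes. The quantifier and annotation were not given in the sources used here.

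Values were fitted as log2(TPM + 1), a scale that understates changes of low genes, with limma 3.58.1 in R 4.3.3. The fit used a mean-variance trend and a mean for each of the 4 groups over all 8 libraries (4 residual degrees of freedom). The 16064 genes that reached 1 TPM in 2 or more libraries entered, with Benjamini-Hochberg adjustment over all of them. The scripts were tested on simulated data. The median log2 difference of all genes from wild type was 0.15 in Scribble null, 0.14 in Yap1 Taz null and 0.12 in the triple null, and at most 0.009 under median ratio scaling.

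The 10 genes and all lists were chosen with earlier results of these data known. Named are the 10 genes, up to 6 genes of a list called in any comparison by smallest adjusted p, or the 3 with the highest level where none was called, and the genes of most similar profile, of which 1 is not reported here. Fos, marker genes and target genes are named outside that rule. The labels give each library an Exp number and do not state whether libraries of the same number share an experiment. Deviations of same-numbered libraries had correlations of −0.053 to 0.026 over 6 pairs of groups. They showed no common deviation, but such values cannot settle whether an experiment was shared. Alternatives were other pseudocounts, filters, scalings, the series table, no trend, a replicate block, only the groups compared, and each library left out. Promoters are from RefSeq (GRCm38.p6), and gene positions and transcripts from GENCODE M21 (GRCm38, which is mm10).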

Additional observations from a re-analysis of the deposited data

Results flagged for a closer look

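In 6 of the 10 genes (8.72% of all genes tested), loss of Yap1 and Taz went with higher levels where Scribble was intact. Where Scribble was absent it went with lower levels in these 6, both times in libraries that did not overlap. With the departure of the triple null as the value, these were Egr1 at −1.44, Nr4a1 at −1.06, Nr4a2 at −1.59, Nr4a3 at −1.46, Ier2 at −0.38 and Zfp36 at −0.91. The difference served to choose these genes, so it stands here as not tested, and the limma calls counted for 4 of them are no independent support.

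In 5 related genes the departure itself was called by limma, as a difference between the effects of a loss on the intact and on the null background. It was −1.76 for Bhlhe40 (adjusted p = 0.0151), −1.44 for Btg2 (adjusted p = 0.0403), −1.71 for Vegfa (adjusted p = 0.0457), −1.66 for Hsph1 (adjusted p = 0.00248) and −1.15 for Hspa1a (adjusted p = 0.0177). Over all genes 0.261% were called below 0. The lists of other immediate early genes, upstream factors, feedback regulators, AU-rich transcripts and heat shock genes held 41, 27, 21, 11 and 11 tested genes. They were chosen with earlier results of these data known, so these calls are no independent support. Only the call of Hsph1 held without each library, as given above.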

How the results depend on the processing

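Genes called over the whole table depended on the setting, from 209 in Scribble null against wild type, 159 in Yap1 Taz null, 93 in the triple null against wild type, 34 against Scribble null, 29 against Yap1 Taz null and 102 for the departure. Fitting only the groups compared gave 50, 56, 58, 11 and 6. The series table gave 101, 105, 20 and 15 in Scribble null and Yap1 Taz null against wild type, then in the triple null against each of these. With no filter on low values 127 were called in Scribble null and 17 in the triple null against Yap1 Taz null, and with no trend 100 in Scribble null and 62 for the departure. The replicate block gave 110 and 14 in Scribble null against wild type and the triple null against Yap1 Taz null, and ended the departure calls of Nr4a1 and Zfp36. Whether same-numbered libraries share an experiment is not stated. Leaving out 1 library gave 47 to 221 (Scribble null), 53 to 134 (Yap1 Taz null), 39 to 85, 19 to 61 and 9 to 21 (triple null against wild type, Scribble null and Yap1 Taz null) and 44 to 128 (departure). The cause of these shifts was not tested, beyond the smaller number of libraries or groups in the fits that leave some out.

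Median ratio scaling turned the split of higher against lower calls from 95 and 114 to 58 and 199 in Scribble null, from 76 and 83 to 39 and 96 in Yap1 Taz null, from 36 and 57 to 25 and 67 in the triple null against wild type, from 11 and 18 to 12 and 11 against Yap1 Taz null and from 60 and 42 to 65 and 26 for the departure. Quantile normalization gave 53 and 94 in Yap1 Taz null. Of the 10 genes, 5 were above wild type in the triple null, 2 under median ratio scaling, 3 under quantile normalization and 3 to 5 without 1 library. With no trend none of the 10 was called in any comparison.

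Of 1064 values of the 10 genes under alternatives, 92 moved by at least 1 SD. Of 353 called values of the related genes under alternatives, 160 were still called, 193 kept only their direction and 0 turned. TPM keeps no depth, so the precision of Egr2 and Egr3 at a few TPM is not known beyond the spread of their libraries.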
